A study of Mus musculus with 4 samples.

Results

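The G1 cyclins and CDK inhibitors described here are 10 mouse genes chosen by name from the 31017 gene names of the count tables: the D cyclins Ccnd1, Ccnd2 and Ccnd3, their kinase Cdk4, the inhibitors Cdkn1a, Cdkn1b, Cdkn1c, Cdkn2a and Cdkn2c, and Trp53. Bulk RNA sequencing measured them in 4 libraries made from beta cells, the insulin-secreting cells of the pancreatic islets, sorted by flow cytometry on CD63, a tetraspanin of late endosomes, lysosomes and secretory vesicles. There were 2 CD63 high (CD63 hi) and 2 CD63 low (CD63 lo) libraries. Both groups came from pancreatic islets of wild type, 10-week-old C57BL/6J males, cultured overnight before the sort. The labels name no gate other than CD63. Whether the replicates came from separate animals or sorts is not said, and p-values therefore measure only the spread between these libraries.

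In G1, D-type cyclins bind CDK4 or CDK6, and the active kinases phosphorylate the retinoblastoma protein and release E2F factors that drive entry into S phase. INK4 inhibitors (Cdkn2a to Cdkn2d) bind CDK4 and CDK6 themselves, whereas CIP/KIP inhibitors (Cdkn1a to Cdkn1c) bind cyclin-CDK complexes, and p53, the product of Trp53, is the best known activator of Cdkn1a. Adult beta cells divide rarely, and mouse genetics has tied their postnatal growth to Cdk4 and Ccnd2.

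Cdkn1a and Cdkn2a, the genes with the largest difference between groups and with the fewest counts, each have a pair of transcription start windows in RefSeq (GRCm38.p6), and the deposited counts add up the transcripts of both. These windows are shown with that of Cdkn2b, the expressed neighbour of Cdkn2a, 5′ to 3′ on the strand of the gene, from 250 bases before to 50 bases after the start. Capitals mark the GC box GGGCGG, read on both strands, and the p53 core, which is CATG, 6 bases of any kind and CATG, reads the same on both strands and forms the centre of a p53 response element.
Cdkn1a, upstream start, chr17:29090729-29091028, plus strand: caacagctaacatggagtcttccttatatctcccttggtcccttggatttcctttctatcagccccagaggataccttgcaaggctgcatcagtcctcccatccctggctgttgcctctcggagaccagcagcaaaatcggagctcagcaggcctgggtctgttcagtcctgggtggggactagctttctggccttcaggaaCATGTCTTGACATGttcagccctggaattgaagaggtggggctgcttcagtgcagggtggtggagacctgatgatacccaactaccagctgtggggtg
Cdkn1a, downstream start, chr17:29093519-29093818, plus strand: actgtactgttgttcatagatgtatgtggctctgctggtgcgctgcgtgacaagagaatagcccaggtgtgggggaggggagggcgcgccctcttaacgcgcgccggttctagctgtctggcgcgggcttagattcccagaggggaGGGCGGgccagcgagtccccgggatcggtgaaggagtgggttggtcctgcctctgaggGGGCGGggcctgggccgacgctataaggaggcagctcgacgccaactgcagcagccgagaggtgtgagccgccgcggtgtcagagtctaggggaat
Cdkn2a, upstream start, chr4:89294570-89294869, minus strand: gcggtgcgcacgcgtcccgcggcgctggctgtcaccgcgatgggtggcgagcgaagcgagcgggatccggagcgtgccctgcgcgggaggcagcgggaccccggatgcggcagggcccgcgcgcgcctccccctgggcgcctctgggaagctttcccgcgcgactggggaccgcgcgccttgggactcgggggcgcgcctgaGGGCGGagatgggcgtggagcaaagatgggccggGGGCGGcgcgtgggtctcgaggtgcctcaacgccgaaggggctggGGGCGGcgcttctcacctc
Cdkn2a, downstream start, chr4:89282143-89282442, minus strand: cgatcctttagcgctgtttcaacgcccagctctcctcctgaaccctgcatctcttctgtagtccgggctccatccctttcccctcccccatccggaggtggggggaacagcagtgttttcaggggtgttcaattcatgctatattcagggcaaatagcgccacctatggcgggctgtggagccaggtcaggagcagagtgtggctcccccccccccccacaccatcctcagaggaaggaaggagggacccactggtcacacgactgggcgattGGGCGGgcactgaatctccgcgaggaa
Cdkn2b, chr4:89310983-89311282, minus strand: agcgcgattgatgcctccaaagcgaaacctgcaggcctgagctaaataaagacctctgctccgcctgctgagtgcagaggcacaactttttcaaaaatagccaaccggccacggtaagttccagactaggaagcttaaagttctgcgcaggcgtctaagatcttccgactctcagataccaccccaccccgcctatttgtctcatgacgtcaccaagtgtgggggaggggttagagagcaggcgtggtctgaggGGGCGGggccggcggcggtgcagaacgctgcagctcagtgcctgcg
The p53 core lay in the upstream Cdkn1a window and in 0.712% of the 32851 windows of 300 bases in the table. The GC box, which does not overlap it here, occurred 2 times in the downstream Cdkn1a window, 3 times and 1 time in the upstream and downstream Cdkn2a windows, and in 35.7% of all windows. CpG dinucleotides numbered 45 in the upstream Cdkn2a window, more than in 98.1% of windows, 12 in the downstream one, 18 in that of Cdkn2b, and 2 and 23 in the Cdkn1a windows, against a median of 7. Of the 10 genes, 7 had a window in the table, 11 windows in all, of which 8 held a GC box and 1 the p53 core. A match of letters is a description and not a measured binding site.

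The libraries held 29249270 to 35003307 counts, so that 1 CPM (a count scaled to the library total) stood for 29.2 to 35.0 counts, and a count of 0 allowed up to 3 counts, or 0.0857 to 0.103 CPM. CPM values are scaled by TMM, a factor per library that evens out differences in composition. Ins1 and Ins2 took 48.7% to 56.4% of counts, and Cd63 itself stood at 1973 and 2076 CPM among CD63 high against 1186 and 1120 CPM among CD63 low libraries (a log2 fold change of 0.81, SE 0.19, edgeR adjusted p 0.0484, 0.0632 to 0.194 with any 1 library left out). Markers of other cells were higher in CD63 high libraries as well. The summed level of 8 alpha cell markers was 5562 to 5771 CPM among CD63 high and 423 to 565 CPM in CD63 low, that of 4 delta cell markers 465 to 842 against 48.7 to 67.6 CPM, that of 3 gamma cell markers 2412 to 3902 against 313 to 516 CPM, that of 10 acinar markers 751 to 1170 against 19.1 to 308 CPM, that of 8 duct markers 1659 to 3113 against 911 to 1091 CPM and that of 10 macrophage markers 141 to 500 against 22.2 to 41.5 CPM. Of the macrophage markers 9 of 10 rose, and of the delta and gamma markers tested 3 of 3 each, against 2.50% of all tested genes. Of the acinar markers 3 of 9 rose, of the alpha markers 2 of 7 and of the duct markers 1 of 6. The log2 fold change was below 0 for 1 of the 7 alpha and 2 of the 6 duct markers, with 1 of each list lower without overlap. The counts of markers that rose moved with the analysis. The acinar count was 7 to 9 with any 1 library left out, the macrophage count 6 without CD63 high replicate 2, and the duct count 2 without CD63 high replicate 1 or CD63 low replicate 2. Scaled by library size only, 1 macrophage and 0 acinar markers were called, with limma-voom 4 and 7, and with the robust fit 3 and 1. The summed endothelial (4.64 to 7.98 CPM) and Schwann cell markers (1.81 to 2.43 CPM) overlapped between the groups, as did the mesenchymal (0.629 to 6.80 CPM) and lymphocyte markers (0.821 to 2.25 CPM), and Cdh5, Tie1, Pdgfra, Cdh19, Cd3e, Cd3d and Ms4a1, as well as the acinar Amy2a5 and the duct Cftr, had no count in any library. In bulk libraries a larger number of cells of a type and more RNA per cell cannot be told apart.

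None of the 10 genes passed the test between CD63 high and CD63 low cells. The nearest was Cdkn1a, which encodes the inhibitor p21 and stood 2.03-fold higher in CD63 high cells, with groups that did not overlap (edgeR adjusted p 0.0571). The D cyclins, Cdk4, Cdkn2c and Trp53 differed 1.05-fold to 1.11-fold between the groups, Cdkn1b was 1.28-fold lower in CD63 high cells with strongly overlapping libraries, and Cdkn1c and Cdkn2a had too few counts to be tested. By the quasi-likelihood test of edgeR, with Benjamini-Hochberg adjustment over all genes, 0 of the 8 tested members had an adjusted p under 0.05, against 2.79% of all 13241 tested genes (369, or 617 without CD63 low replicate 1). Higher in CD63 high were 2.50% of all tested genes and lower 0.287%, the latter 38 genes, or 75 and 69 with CD63 high replicate 1 or 2 left out and 164 with CD63 low replicate 1 left out. At an unadjusted p under 0.05 the count was 1, Cdkn1a, against 14.9% of all tested genes. DESeq2 and limma-voom each called 1 of the 8, again Cdkn1a. The groups did not overlap for 2 of the 8, Cdkn1a and Ccnd2, against 46.0% of all tested genes. The median size of the log2 fold change was 0.13 over the 8 genes and 0.24 over the 8793 tested genes at least as abundant as the least abundant of them.

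**Figure D1:**
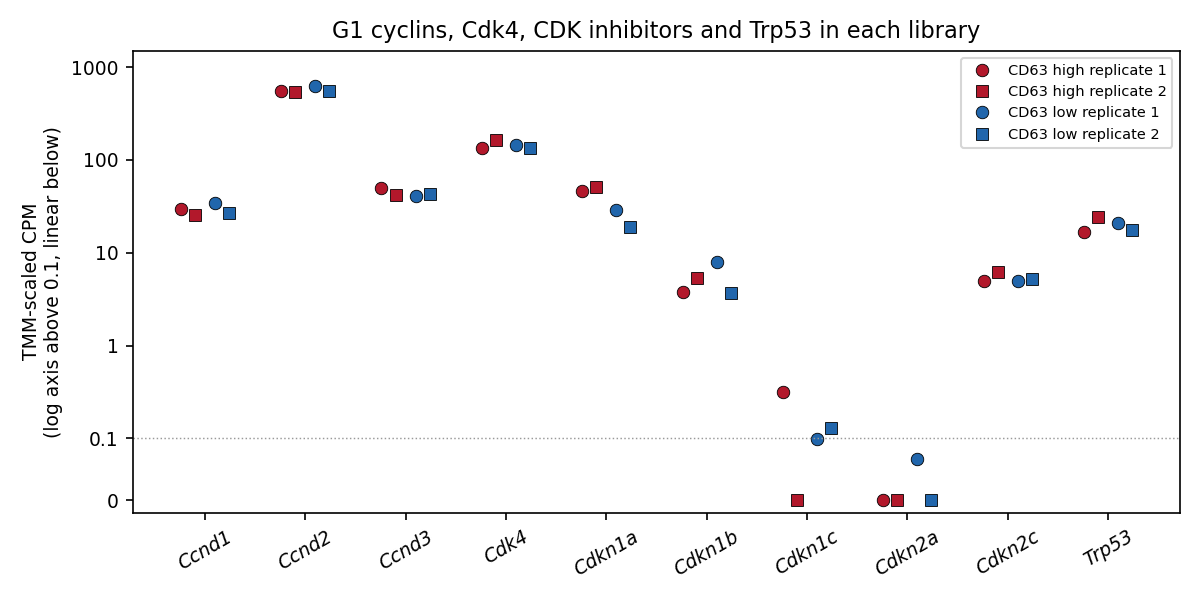
TMM-scaled CPM (vertical axis, logarithmic above 0.1 CPM and linear below) of the 10 genes in each of the 4 libraries, with CD63 high in red, CD63 low in blue, replicate 1 as circles and replicate 2 as squares. Only for Cdkn1a do both red points (45.8 and 51.1 CPM) stand clearly above both blue points (29 and 18.9 CPM), while Cdkn1c and Cdkn2a lie near 0.

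Among the cyclins, Ccnd2 was by far the most abundant. Ccnd2 (chromosome 6, 127125162 to 127152193, mm10, minus strand), the D cyclin most closely tied to beta cell growth in mice, reached 550.1 and 545 CPM among CD63 high and 631 and 551 CPM among CD63 low libraries. Both CD63 high values were below both CD63 low values, but CD63 low replicate 2 exceeded CD63 high replicate 1 by less than 1 CPM, and the log2 fold change was -0.11 (SE 0.19, 95% interval -0.53 to 0.31, edgeR adjusted p 0.865).

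Ccnd1 (chromosome 7, 144929931 to 144939925, mm10), the D cyclin induced by growth factors in many cells, stood at 29.9 and 25.6 CPM among CD63 high and 34.3 and 26.7 CPM among CD63 low libraries. The groups overlapped, with the highest and the next to lowest value in the CD63 low group (log2 fold change -0.14, SE 0.23, 95% interval -0.64 to 0.37). Ccnd3 (chromosome 17, 47505051 to 47599691, mm10), the third D cyclin, measured 50.1 and 42.4 CPM among CD63 high and 40.6 and 42.5 CPM among CD63 low libraries. Here CD63 high replicate 1 stood apart from the other libraries, which lay within 2 CPM of each other (log2 fold change 0.15, SE 0.20, 95% interval -0.29 to 0.60). The edgeR adjusted p was 0.859 for Ccnd1 and 0.808 for Ccnd3.

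Per length, the only scale on which genes can be set against each other, Ccnd2 made up 82.9% and 85.0% of D cyclin transcript among CD63 high and 84.9% and 84.8% among CD63 low libraries. Ccnd1 took 9.0% and 7.96% against 9.23% and 8.22%. The share of Ccnd3 was 8.10% and 7.08% among CD63 high and 5.87% and 7.01% among CD63 low libraries, and the groups of this share did not overlap, by less than 0.1 percentage points. With 2 libraries a group, the smallest two-sided p of an exact permutation test is 0.33, so these shares carry no test. Reads in the 23.4% of Ccnd1 exon length shared with Oraov1 on the opposite strand cannot be assigned without strand information. With such bases left out of the lengths, a choice made after seeing the data, the mean share of Ccnd1 was 10.0% among CD63 high and 10.3% among CD63 low libraries.

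**Figure D2:**
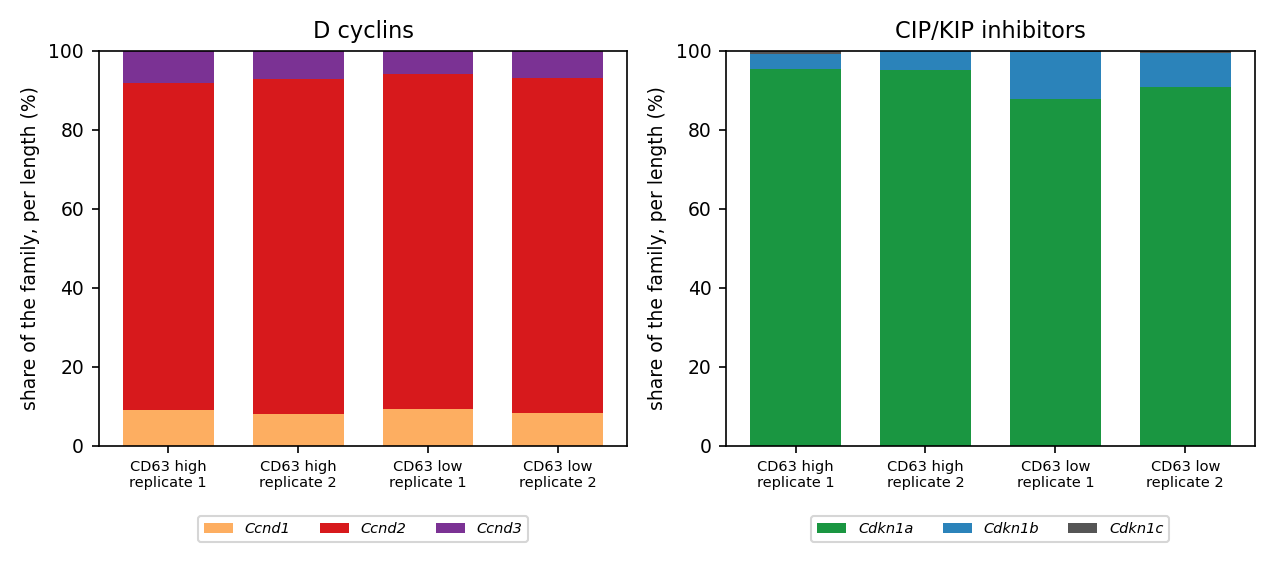
Share of each gene (vertical axis, percent, per length) in the summed D cyclin transcripts (left) and the summed CIP/KIP inhibitor transcripts (right) of each library. Ccnd2 holds 82.9% to 85.0% of the left bars in all 4 libraries, and in the right bars Cdkn1a holds 95.5% and 95.2% among CD63 high and 87.9% and 90.8% among CD63 low libraries.

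Cdk4 (chromosome 10, 127063534 to 127067920, mm10), the kinase partner of the D cyclins, reached 136 and 163 CPM among CD63 high and 144 and 134 CPM among CD63 low libraries. Its groups overlapped, with CD63 high replicate 2 the highest of the 4 (log2 fold change 0.10, SE 0.20, 95% interval -0.33 to 0.53, edgeR adjusted p 0.881). Of the Cdk4 exon length, 19.7% is shared with Tspan31, a tetraspanin gene on the opposite strand with 3208 to 3937 counts of its own per library, so part of the reads of both cannot be assigned. The other D cyclin kinase, Cdk6, had 20 and 12 counts among CD63 high and 3 and 12 counts among CD63 low libraries. Per length, Cdk4 transcript was 916 and 1619 times that of Cdk6 in the CD63 high libraries and 6280 and 1874 times in the CD63 low libraries, the value of 6280 resting on 3 Cdk6 counts (2149 to 30450 over the exact Poisson 95% interval of those counts, which covers counting error only). Cdk6 was higher in CD63 high without overlap after scaling, at 0.638 and 0.433 CPM against 0.0988 and 0.308 CPM, as were 23.7% of all tested genes. The difference did not pass (log2 fold change 1.36, SE 1.01, edgeR adjusted p 0.605).

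Cdkn1a (chromosome 17, 29090979 to 29100722, mm10, plus strand) encodes p21, the CIP/KIP inhibitor that is induced by p53 and by several stress and differentiation signals. It had 1435 and 1416 counts among CD63 high and 880 and 735 counts among CD63 low libraries, or 45.8 and 51.1 CPM against 29 and 18.9 CPM. The CD63 high libraries agreed closely with each other, the CD63 low libraries less so, and the groups did not overlap, as for 46.0% of all tested genes. The mean was 48.4 ± 3.77 CPM among CD63 high and 23.9 ± 7.16 CPM across CD63 low cells (SD, n = 2 per group). The log2 fold change was 1.02 (SE 0.25, 95% interval 0.47 to 1.56, not adjusted for the number of genes), and the edgeR adjusted p of 0.0571 missed the threshold. By p-value Cdkn1a was at position 420 of the 13241 tested genes.

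The direction of the Cdkn1a difference held in each of 14 alternative analyses, with adjusted p of 0.00152 to 0.131 over all 14, and 8 of them called it. Leaving out CD63 low replicate 1 gave a log2 fold change of 1.36 (edgeR adjusted p 0.00555) and leaving out CD63 high replicate 1 gave 1.10 (0.0279). Without CD63 low replicate 2 the log2 fold change was 0.76 and without CD63 high replicate 2 it was 0.94, with an edgeR adjusted p of 0.130 each. DESeq2 (adjusted p 0.00458) and limma-voom (0.0460) called it, and scaling by library size only did not (0.131). Markers of other cells moved with the same groups: those of alpha cells summed to 5562 and 5771 CPM in CD63 high replicates 1 and 2, and those of macrophages to 141 and 500 CPM, all above both CD63 low libraries. The part of other cell types in the level of Cdkn1a was not tested.

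**Figure D3:**
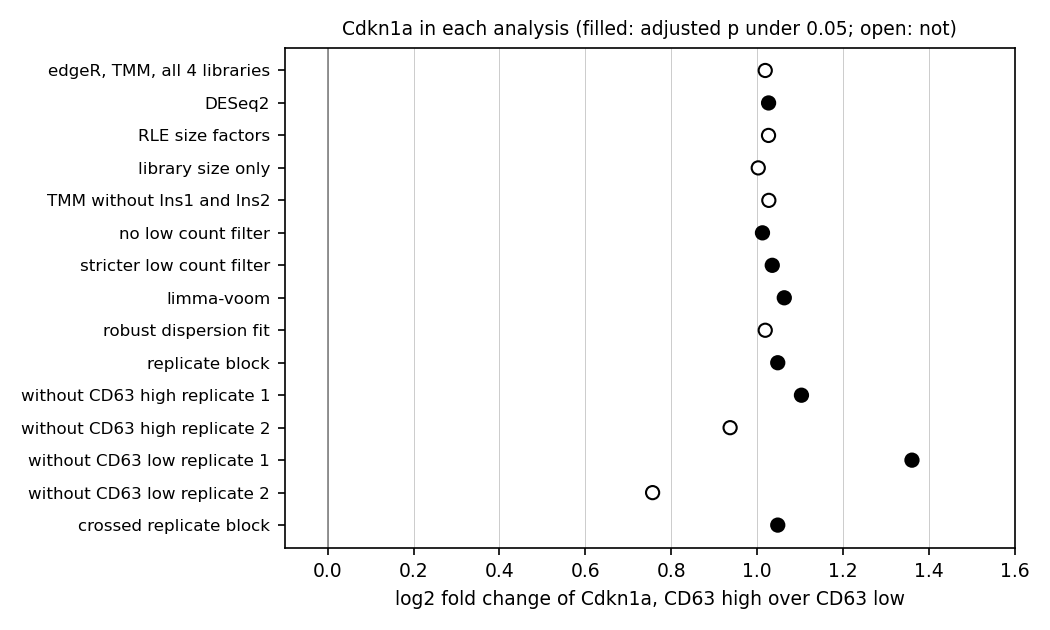
Log2 fold change of Cdkn1a, CD63 high over CD63 low (horizontal axis), in the edgeR analysis of all 4 libraries (top) and in each of 14 alternatives (rows below). Filled points have an adjusted p under 0.05, which 8 alternatives reached, and all points lie between 0.76 and 1.36.

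The other CIP/KIP inhibitors were scarce. Cdkn1b (chromosome 6, 134920401 to 134925513, mm10), which encodes p27, an inhibitor typical of resting cells, had 117 and 147 counts among CD63 high and 242 and 142 counts among CD63 low libraries. At 3.73 and 5.31 CPM against 7.97 and 3.64 CPM, both the highest and the lowest library were CD63 low (log2 fold change -0.36, SE 0.43, 95% interval -1.31 to 0.59, edgeR adjusted p 0.780), and without CD63 low replicate 1 the log2 fold change was 0.31. Cdkn1c (chromosome 7, 143458339 to 143461050, mm10), the imprinted gene of p57, had 10 and 0 counts among CD63 high and 3 and 5 counts among CD63 low libraries, near the limit set by a count of 0, and was not tested. Per length, Cdkn1a exceeded Cdkn1b 25.1-fold and 19.7-fold among CD63 high and 7.45-fold and 10.6-fold among CD63 low libraries. The Cdkn1b share of CIP/KIP transcript was 3.8% and 4.83% among CD63 high and 11.8% and 8.56% among CD63 low libraries, without overlap, and it carries no test. Cdkn1a makes up most of the CIP/KIP sum, so this share and the ratio depend on its level as well. The levels of Cdkn1b itself overlapped between the groups.

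Among the INK4 inhibitors, Cdkn2a was at the limit of detection. Cdkn2a (chromosome 4, 89274471 to 89294653, mm10) encodes p19Arf from its upstream and p16Ink4a from its downstream start, products known for their increase in aged beta cells. It had no count in either CD63 high library, 2 counts in CD63 low replicate 1 and none in replicate 2, so that no difference could be detected at this depth and the starts shown above cannot be told apart. Cdkn2c (chromosome 4, 109660876 to 109667189, mm10), the gene of p18, had 154 and 173 counts among CD63 high and 151 and 205 counts among CD63 low libraries. Its levels of 4.91 and 6.24 CPM against 4.98 and 5.26 CPM overlapped (log2 fold change 0.12, SE 0.34, 95% interval -0.63 to 0.88, edgeR adjusted p 0.922). Cdkn2b, the gene of p15, lies 11635 bases from Cdkn2a on the same strand and reached 9.57 and 10.7 CPM among CD63 high and 11.9 and 14.2 CPM among CD63 low libraries. Cdkn2d, the gene of p19Ink4d, reached 14.5 and 14.3 CPM against 20.8 and 15.7 CPM. Both had lower values in the CD63 high libraries without overlap, as had 22.2% of all tested genes. Neither passed (log2 fold change -0.37 and -0.34, SE 0.27 and 0.25, edgeR adjusted p 0.588 and 0.601).

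Trp53 (chromosome 11, 69580359 to 69591873, mm10) encodes the transcription factor p53, whose activity is set largely at the level of the protein. It measured 16.5 and 24 CPM among CD63 high and 20.8 and 17.8 CPM among CD63 low libraries. The lowest and the highest value were both CD63 high (log2 fold change 0.07, SE 0.26, 95% interval -0.50 to 0.64, edgeR adjusted p 0.941).

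**Figure D4:**
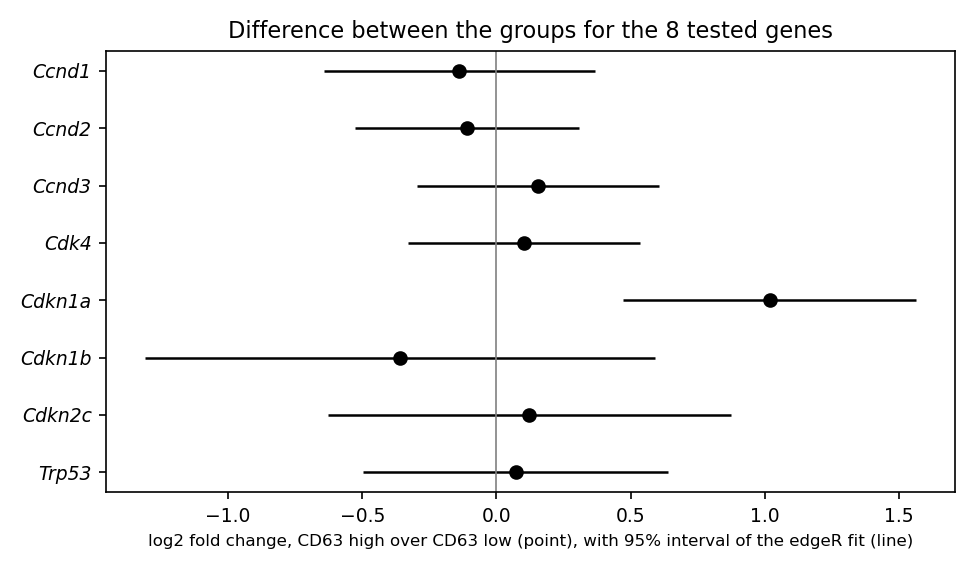
Log2 fold change, CD63 high over CD63 low (horizontal axis), of the 8 tested genes, with points for the edgeR estimate and lines for its 95% interval, not adjusted for the number of genes. The interval of Cdkn1a, 0.47 to 1.56, lies above 0, and those of the other 7 genes include 0.

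In TPM, a level per length that can be compared between genes of a library, the order over the 4 libraries was Ccnd2 (84.0 to 109 TPM), Cdk4 (62.8 to 77.1), Cdkn1a (15.8 to 33.8), Ccnd1 (7.86 to 10.6), Ccnd3 (6.55 to 9.37), Trp53 (6.70 to 8.58), Cdkn2c (2.62 to 3.66), Cdkn1b (1.34 to 2.48), Cdkn1c (0 to 0.257) and Cdkn2a (0 to 0.0796). Ranges overlapped between Ccnd1, Ccnd3 and Trp53 and between Cdkn1c and Cdkn2a. They did not overlap between the other neighbours in this order. All ranges use full exon lengths, of which 19.7% for Cdk4 and 23.4% for Ccnd1 is shared with a gene on the opposite strand. The overlap of ranges with such bases left out was not examined. Cdk4 transcript per length was 2.03 and 2.18 times that of Cdkn1a among CD63 high and 3.40 and 4.86 times among CD63 low libraries, again without overlap and without a test. The levels of Cdk4 itself overlapped between the groups, and those of Cdkn1a did not.

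Patterns like those of Ccnd2 and Cdkn1b, the genes named for this comparison since no member passed the test, were sought among the 7669 tested genes whose average log2 CPM was 3 or more. Likeness was the root mean square difference of log2 CPM centred on each gene's mean over the 4 libraries. The nearest to Ccnd2 were Ubl4a, Pygo2 and Sdcbp2, at 0.0170, 0.0179 and 0.0189, and 555 genes lay within 0.1. The nearest to Cdkn1b were AI987944, Rxra and Selenoh, at 0.10, 0.108 and 0.109. A likeness over 4 libraries is a description only.

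The rest of the G1/S machinery showed no called gene. Of 29 further genes, 28 were tested, and 0 rose and 0 fell by edgeR (DESeq2 and limma-voom also called 0). Of the 28, 4 had an unadjusted p under 0.05, against 14.9% of all tested genes. The median log2 fold change, -0.01, was that of all tested genes. Rb1, the gene of the retinoblastoma protein that cyclin D-CDK4 phosphorylates, stood at 3.8 and 4.95 CPM among CD63 high and 9.46 and 7.78 CPM among CD63 low libraries. Rb1 was lower in CD63 high without overlap, as were 22.2% of all tested genes, and the difference did not pass (log2 fold change -0.98, SE 0.33, edgeR adjusted p 0.173). Tfdp2, a partner of E2F factors, was at -0.93 (SE 0.30), and Cks1b, which helps to degrade p27, at 0.60 (SE 0.20), neither past the threshold (edgeR adjusted p 0.147 and 0.166). Ccne1, Ccne2 and Cdk2, the cyclins and kinase that act after the D cyclins, had log2 fold changes of 0.92 (SE 0.44), 0.00 (SE 0.44) and -0.03 (SE 0.64), with edgeR adjusted p of 0.369, 1.00 and 0.994.

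Several genes of S phase and mitosis had few counts, and none of this list passed the test. Of 32 genes 25 were tested, and 0 rose and 0 fell by edgeR (DESeq2 and limma-voom also called 0). Of the 25, 6 had an unadjusted p under 0.05, against 14.9% of all tested genes. Their median log2 fold change was 0.43, against -0.01 over all tested genes, and 9 of the 25 were higher without overlap, against 23.7% of all tested genes. Top2a, Ccnb1, Cdc20, Mybl2 and Cenpa, all among the 9, reached the filter's minimum count of 10 only in CD63 high libraries. Ube2c, Mcm3 and Cdt1, also among the 9, reached it in both CD63 high libraries but not in both CD63 low libraries. Ube2c had no count in CD63 low replicate 2. All of these genes entered the test only through the group where they were higher. The median, these counts and any call of these genes therefore carry no test of the list. The median stayed at 0.43 with Mybl2, which had no count in CD63 low, set at 3 counts over CD63 low. Without CD63 low replicate 1 the test called Ube2c higher, and without CD63 low replicate 2 Mcm3 and Cdt1. With the replicate number as a block it called Mybl2 higher (edgeR adjusted p 0.0469, 0.0469 to 0.299 over the alternatives). The summed level of all 32 was 86.9 to 104 CPM among CD63 high and 76.4 to 101 CPM among CD63 low libraries and overlapped. Mki67, the standard marker of cycling cells, had 12 and 5 counts in CD63 high libraries and none among CD63 low libraries, and was too low to be tested. Mybl2, a factor of the G1/S and G2/M programmes, had 23 and 10 counts against none (edgeR adjusted p 0.0725). The mitotic cyclin Ccnb1 had 19 and 12 counts against 1 and 0 (edgeR adjusted p 0.120). With 3 counts set over both CD63 low libraries, Mki67 was 6.45-fold and Mybl2 12.5-fold higher in CD63 high. These folds take the CD63 high counts as exact and leave out the spread between libraries, so they are not lower limits. Macrophage, acinar and other islet cell markers were higher in the same CD63 high libraries, and their part in these few counts was not tested.

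**Figure D5:**
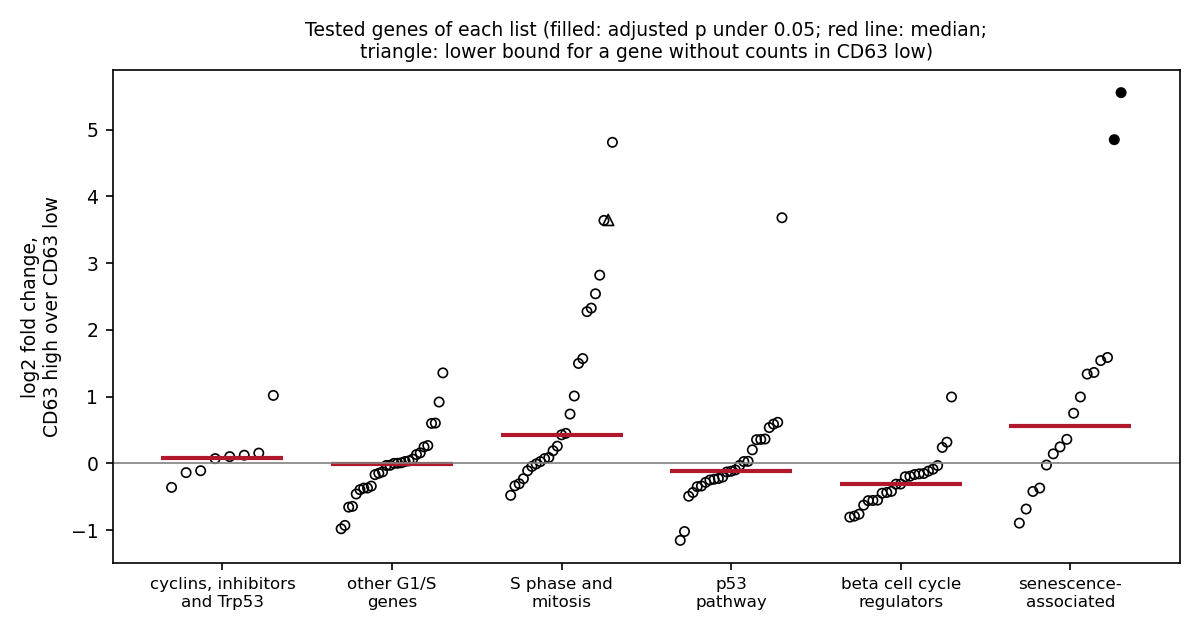
Log2 fold change, CD63 high over CD63 low (vertical axis), of the tested genes of the 10 members and of each further list, ordered by size within a list, with the median as a red line. Mybl2, without counts in CD63 low, is a triangle at the value for 3 counts set over CD63 low (marked as lower bound, CD63 high counts taken as exact). Filled points, Cxcl1 and Cxcl2, passed the test, and the medians run from -0.31 to 0.56.

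None of the p53 pathway genes tested passed. Of 31 genes 25 were tested, 0 rose and 0 fell by edgeR (4 had an unadjusted p under 0.05, close to the 14.9% of all tested genes, DESeq2 called Fas higher and Xpc lower, and limma-voom called 0), and the median log2 fold change was -0.12. The log2 fold change was above 0 for 10 and below 0 for 15 of them, against 6440 and 6801 of all tested genes. Xpc, a DNA repair gene, stood at 6.22 and 6.82 CPM among CD63 high and 13.5 and 15.5 CPM among CD63 low libraries, below the CD63 low level in both and just short of the threshold (log2 fold change -1.15, SE 0.27, edgeR adjusted p 0.0538). Fas, the death receptor gene, stood at 3.60 and 2.09 CPM against 0.461 and 0 CPM (edgeR adjusted p 0.116). It reached the filter's minimum count of 10 in both CD63 high libraries (113 and 58 counts) but not in both CD63 low libraries (14 and 0 counts). Fas was thus tested only through the group where it was higher, and calls of Fas carry no test of the list. Without CD63 high replicate 2, or without CD63 low replicate 1, the test called Fas higher and Sesn1 lower. Mdm2, the ubiquitin ligase that p53 induces and that degrades p53, measured 33.8 and 33.9 CPM among CD63 high and 39.0 and 47.1 CPM among CD63 low libraries. Mdm2 was lower without overlap, as were 22.2% of all tested genes, and not past the threshold (log2 fold change -0.35, SE 0.21, edgeR adjusted p 0.496). Gadd45a and Ccng1, p53 target genes chosen here after their values were seen, had log2 fold changes of 0.54 (SE 0.21) and -0.49 (SE 0.22), and neither passed (edgeR adjusted p 0.255 and 0.342).

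Upstream regulators of the beta cell cycle lay mostly lower in CD63 high libraries without passing the test. Of 27 genes 23 were tested and 20 had a log2 fold change below 0, against 6801 of all 13241 tested genes. The median over the 23 was -0.31, against -0.01 over all tested genes, and 11 were lower without overlap, against 22.2% of all tested genes. The list was chosen with earlier results of these data known, so these counts carry no test of it. By edgeR 0 rose and 0 fell (DESeq2 called Igf1r higher, and limma-voom called 0). Of the 23, 4 had an unadjusted p under 0.05, against 14.9% of all tested genes. Akt1, a kinase of insulin and growth factor signalling, stood at 72.5 and 47.4 CPM among CD63 high and 88.8 and 114 CPM among CD63 low libraries (a log2 fold change of -0.76, SE 0.24, edgeR adjusted p 0.148). Igf1r, the IGF-1 receptor gene, went the other way, at 88.1 and 53 CPM against 34.4 and 36.4 CPM (log2 fold change 1.00, SE 0.25, edgeR adjusted p 0.0651). Akt1 was called lower without CD63 high replicate 1 or CD63 low replicate 1, and Igf1r higher without either of the other two libraries. The 8 beta cell markers had a median log2 fold change of -0.57 in the same libraries, against -0.01 over all tested genes. Of the 8, 2 fell, Slc2a2 and Mafa, against 0.287% of all tested genes. Mafa was not called without CD63 high replicate 1, and scaled by library size only 0 of these markers were called.

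Of 20 senescence-associated genes 16 were tested, 2 rose by edgeR, against 2.50% of all tested genes, 0 fell, and the median log2 fold change was 0.56, against -0.01 over all tested genes. At an unadjusted p under 0.05 the count was 7 of the 16, against 14.9% of all tested genes. DESeq2 called 3 higher, Igf1r being the third, limma-voom 2, and the test without the filter on low counts 6 higher and 1 lower. The ones that rose, Cxcl1 and Cxcl2, are chemokine genes known from inflammation in many cell types. Cxcl1 reached 14.5 and 7.83 CPM among CD63 high against 0.297 and 0.180 CPM among CD63 low libraries (a log2 fold change of 5.55, SE 0.51, edgeR adjusted p 0.000775), and Cxcl2 2.30 and 3.83 CPM against 0.132 and 0.0770 CPM (4.85, SE 0.77, edgeR adjusted p 0.00815). Both were called in each of the 14 alternatives. At these levels Cxcl1 and Cxcl2 were under the filter's minimum count of 10 in both CD63 low libraries. They were tested only through the CD63 high libraries. Both are part of the counts of 2 and 7 among the 16 and of the median, so none of these carries a test of the list. Macrophage markers rose in the same libraries, and their part in the chemokine counts was not tested. The test called 4 of these genes higher without either one of the CD63 high libraries or without CD63 low replicate 1, Cxcl1 and Cxcl2 among them, and 3 higher and 1 lower (Igfbp7) without CD63 low replicate 2. Cdkn2a, the senescence marker of the INK4 genes, stayed at 0 to 2 counts per library.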

How the data were processed

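Beta cells from 4 sorted samples were profiled by polyA RNA sequencing (SMARTer v4 cDNA and Nextera XT, per the labels' protocols), which carries no strand information and, as far as the labels say, no molecular identifiers, so limits cover counting error only. The authors deposited raw counts per gene name, made with featureCounts 1.6.2 on paired-end fragments without a strand or multi-mapping option and the Cell Ranger mm10 3.0.0 annotation, per the file headers. STAR 2.6.0c, FastQC and Cell Ranger are named per the submitters' processing notes without a role. For read trimming the step is not given in the sources used.

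Groups and replicate numbers were taken from the sample titles. Every gene name was read. Coordinates span the first to the last exon in the deposited tables. Genes were filtered with filterByExpr (minimum count 10, minimum total 15), which kept 13241 and 8 of the 10 members, scaled (TMM factors) and fitted by glmQLFit, then glmQLFTest, of edgeR 4.0.16 in R 4.3.3, at a Benjamini-Hochberg adjusted p under 0.05. Each standard error was derived as |log2 fold change| divided by √F. The fit was tested on simulated counts with planted differences, drawn independently with the same spread for all genes. Its performance on libraries whose spread differs by gene or group was not tested. Alternatives used DESeq2 1.42.0, limma-voom 3.58.1, other scalings and filters, a robust fit, replicate blocks and each library left out. TPM used deposited exon lengths. TMM-scaled CPM use total counts, and summed marker levels use total counts without TMM.

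The members and lists were chosen with earlier results of these data known. Named genes were all members, a fixed set (Cd63, Cdk2, Cdk6, Ccne1, Ccne2, Rb1, Cdkn2b, Cdkn2d, Mki67, Mdm2) and, from each list, up to 6 called genes by p or, with none called, the 2 with the smallest p. Other genes were named after their values were seen.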

Additional observations from a re-analysis of the deposited data

How the results depend on the processing

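Over all genes the test called 686 with DESeq2 (534 higher, 152 lower in CD63 high), 67 with library size as the only scaling (66 and 1), 940 without the filter on low counts (690 and 250) and 616 with the replicate number as a block (535 and 81), against 369 (331 and 38), and leaving out 1 library gave 440 to 617 (371 to 467 higher, 50 to 164 lower). Of the members 1, Cdkn1a, was called with DESeq2, limma-voom, no filter, the stricter filter of 30 counts in 2 libraries, and the replicate block, and 0 to 1 with 1 library left out. The deviations of same-numbered libraries correlated at -0.10 over genes, so the numbers are not taken to pair the samples. The numbering is itself in doubt, since the deposited tables number the CD63 low libraries 2 and 3 and the titles 1 and 2. A block with crossed numbers, added after seeing the data, called 942 genes (607 and 335) and 1 member. Log2 fold changes of differences that had not passed the test changed sign with 1 library left out, over ranges of -0.291 to 0.0524 (Ccnd1), -0.0360 to 0.233 (Cdk4), -0.804 to 0.309 (Cdkn1b), -0.0592 to 0.291 (Cdkn2c), -0.220 to 0.322 (Trp53), -0.482 to 0.649 (Cdk2) and -0.117 to 0.147 (Ccne2). Cdk2 was at 0.0185 with the replicate block and 0.0171 with the crossed block, and Ccne2 at -0.0526 with library size only, -0.00749 without the filter and -0.00485 with limma-voom. The cause was not tested. As shares of raw counts, Ccnd1 took 4.46% (CD63 high) and 4.59% (CD63 low) and Ccnd2 88.1% and 89.1% of D cyclins, and Cdkn1a 91.2% and 80.8% and Cdkn1b 8.45% and 18.8% of CIP/KIP transcript, because lengths differ. Without exon bases shared with another gene Ccnd1 took 10.0% and 10.3%, and Ccnd2 83.6% in CD63 low. Of 112 other settings of the members, 98 kept direction and side of the threshold and 8 brought Cdkn1a past it. Depth limits Cdkn1c and Cdkn2a, where 3 counts stand for 0.0857 to 0.103 CPM.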
